A study of Homo sapiens with 30 samples.

Results

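The YAP and TEAD pathway was followed through 10 genes, namely YAP1, WWTR1, TEAD1, TEAD4, AMOTL1, AMOTL2, LATS2, AJUBA, ANKRD1 and AXL. They were taken by symbol, and by Ensembl identifier in the knockout table, from 60612 genes of the knockout table and 56303 genes of each of the overexpression and knockdown tables. The rule used no measured value, although the list of genes was drawn up with earlier results of these data known. All 10 genes passed the filter on low counts in every comparison. RNA-seq was performed on 5637 cells, a human bladder carcinoma cell line, to follow what the RNA-binding protein RBPMS and the transcripts ANKRD10-1 and ANKRD10-2 of the gene ANKRD10 do to gene expression. In the knockout table, KO1 and KO2 are RBPMS-KO cells, and each had its own WT group (WT1 and WT2), which the study's figures name sgCtrl. In the overexpression table, cells overexpressing ANKRD10-1 or ANKRD10-2 were set against Vector only cells. In the knockdown table, siANKRD10-1 and siANKRD10-2, small interfering RNAs, were set against the control siNC. Each of the 10 groups had 3 libraries. The study describes single-clone expansion of its knockout populations. The labels name only 5637 as the cells of the overexpression and knockdown libraries, whereas the text of the study places ANKRD10-1 overexpression and ANKRD10-2 knockdown in RBPMS-knockout cells, so the genetic background of these libraries was not settled here. By that text the background would differ between the ANKRD10-1 and ANKRD10-2 groups of each table. Comparisons of these groups below carry this limit, both those against Vector or siNC and the direct ones. A difference of background would be mixed with the treatment in them. The study calls the n of its experiments biologically independent but gives no n for these RNA-seq libraries, and the labels name no separate cultures, so that p-values measure the spread between these libraries, which may be technical.

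YAP (gene YAP1) and its relative TAZ (gene WWTR1) are coactivators that do not bind DNA themselves. They enter the nucleus and bind the TEAD transcription factors, which recognise a short sequence in promoters and enhancers. The Hippo kinases, among them LATS2, phosphorylate YAP and TAZ and keep them in the cytoplasm. Angiomotin-like proteins (AMOTL1, AMOTL2) bind YAP at cell junctions, and the LIM protein AJUBA binds and restrains LATS kinases. ANKRD1 and AXL are widely used readouts of YAP and TEAD activity, and AMOTL2, LATS2 and AJUBA are both regulators and target genes of the pathway, so that it feeds back on itself. The ankyrin repeat gene ANKRD1 is a different gene from ANKRD10, the gene that was manipulated.

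The promoters of the members were searched for the core of the TEAD recognition sequence, GGAATG or its complement CATTCC, in windows from 250 bases before to 50 bases after each RefSeq start (GRCh38.p14). These 26-base stretches are shown because they hold every match in the windows of the members, with the core in capitals and each read 5′ to 3′ on the strand of its gene:
YAP1: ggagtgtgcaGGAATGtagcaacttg
ANKRD1, first match: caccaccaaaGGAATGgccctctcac
ANKRD1, second match: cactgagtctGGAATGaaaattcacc
AMOTL2: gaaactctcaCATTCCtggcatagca
AXL: gactttgcacCATTCCactccctccg
LATS2: tgacgcccgtGGAATGccaacaatgt
AJUBA: gaagttggctGGAATGaagccaaagc
The YAP1 match lay 162 bases before the RefSeq start (chr11:102110275-102110300, + strand). The ANKRD1 window held 2 matches, 220 and 128 bases before its RefSeq start (chr10:90921292-90921317 and chr10:90921200-90921225, both - strand). The second of these lay inside the annotated gene. The AMOTL2 match lay 69 bases before the second of its RefSeq starts, inside the annotated gene (chr3:134374501-134374526, - strand). The AXL match lay 212 bases before a start inside the gene (chr19:41226533-41226558, + strand), and the AJUBA match lay 59 bases before a start inside the gene (chr14:22976886-22976911, - strand). The LATS2 match was the only one downstream of its start, by 9 bases (chr13:21061562-21061587, - strand). At least 1 window held the letters in 6 of the 8 members with a RefSeq window, whereas 16.7% of all 27305 genes with a window had a match. Counted by window, 6 of 12 windows of the members and 14% of 35116 windows of all genes had one. WWTR1 and AMOTL1 had none in their windows, which says only that these letters were not there, and TEAD1 and TEAD4 had no window to search. Whether TEAD factors bind at the matches was not tested.

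Total counts ran from 44593108 to 69723937 reads per library in the knockout table, 31736779 to 47493499 in the overexpression table and 28511029 to 32784584 in the knockdown table. Below, CPM is the read count scaled to a common library size within a table, with TMM normalisation, and levels are not compared between tables, which were made and scaled separately. RBPMS, the knocked-out gene, fell to 14.3 to 15.2 CPM in KO1 from 39.0 to 42.2 CPM in WT1, and to 19.0 to 21.3 CPM in KO2 from 42.4 to 44.2 CPM in WT2, and so kept some reads in both knockouts, and these counts do not show whether the protein was lost. ANKRD10 read counts, which sum its transcripts, rose in ANKRD10-1 and ANKRD10-2 overexpression (log2 fold change 0.67 and 0.41), and fell by 0.24 and 0.25 on the log2 scale in siANKRD10-1 and siANKRD10-2, respectively. ANKRD10 also fell in both knockouts, by 1.18 and 0.76 on the log2 scale. All 9 epithelial markers looked at (CDH1, EPCAM, GATA3, KRT5, KRT7, KRT8, KRT18, KRT19 and TP63) were detected in every group, with group means from 7.12 to 1841 CPM. Among 9 markers of other cells, the T cell marker CD3E had a group mean of at most 0.06 CPM and the leukocyte marker PTPRC of at most 0.23 CPM, whereas the macrophage marker CD68 and the collagen gene COL1A1, which carcinoma lines can express, reached 22.5 and 50.7 CPM. The levels of the rest of these markers (PECAM1, VWF, COL1A2, PDGFRB and DES) are not given here. In bulk RNA, a lower level in every cell and the same level in fewer cells cannot be told apart.

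Levels of different genes were compared per length, as RPKM, the CPM per 1000 bases of the annotated exon length. In WT1, YAP1 was the member with the highest RPKM (71.4 ± 2.01, SD, n = 3), followed by AMOTL1 (44.5 ± 1.23), AJUBA (22.5 ± 1.56), AXL (20.2 ± 0.27), TEAD1 (14.8 ± 0.13), AMOTL2 (12.6 ± 0.87), WWTR1 (8.30 ± 0.08), TEAD4 (7.53 ± 0.20), LATS2 (3.91 ± 0.13) and ANKRD1 (3.56 ± 0.63). LATS2 and ANKRD1 differed by less than the spread of ANKRD1. In WT2 the order was the same but for AXL (20.3 ± 0.64) and AJUBA (17.4 ± 0.77), which changed places. In Vector cells AMOTL1 (45.9 ± 3.20) stood above YAP1 (19.7 ± 0.45), and ANKRD1 (7.01 ± 0.39) stood above WWTR1 (4.07 ± 0.10) and TEAD1 (3.50 ± 0.10). In siNC cells AMOTL1 (27.8 ± 2.59) again led, ahead of YAP1 (23.5 ± 0.50). AMOTL2 (10.7 ± 1.15) and AJUBA (10.0 ± 0.21) of siNC, and TEAD4 (2.81 ± 0.32) and TEAD1 (2.79 ± 0.31), did not differ beyond their spread, nor did AXL (8.86 ± 0.25) and ANKRD1 (8.47 ± 0.48).

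**Figure D1:**
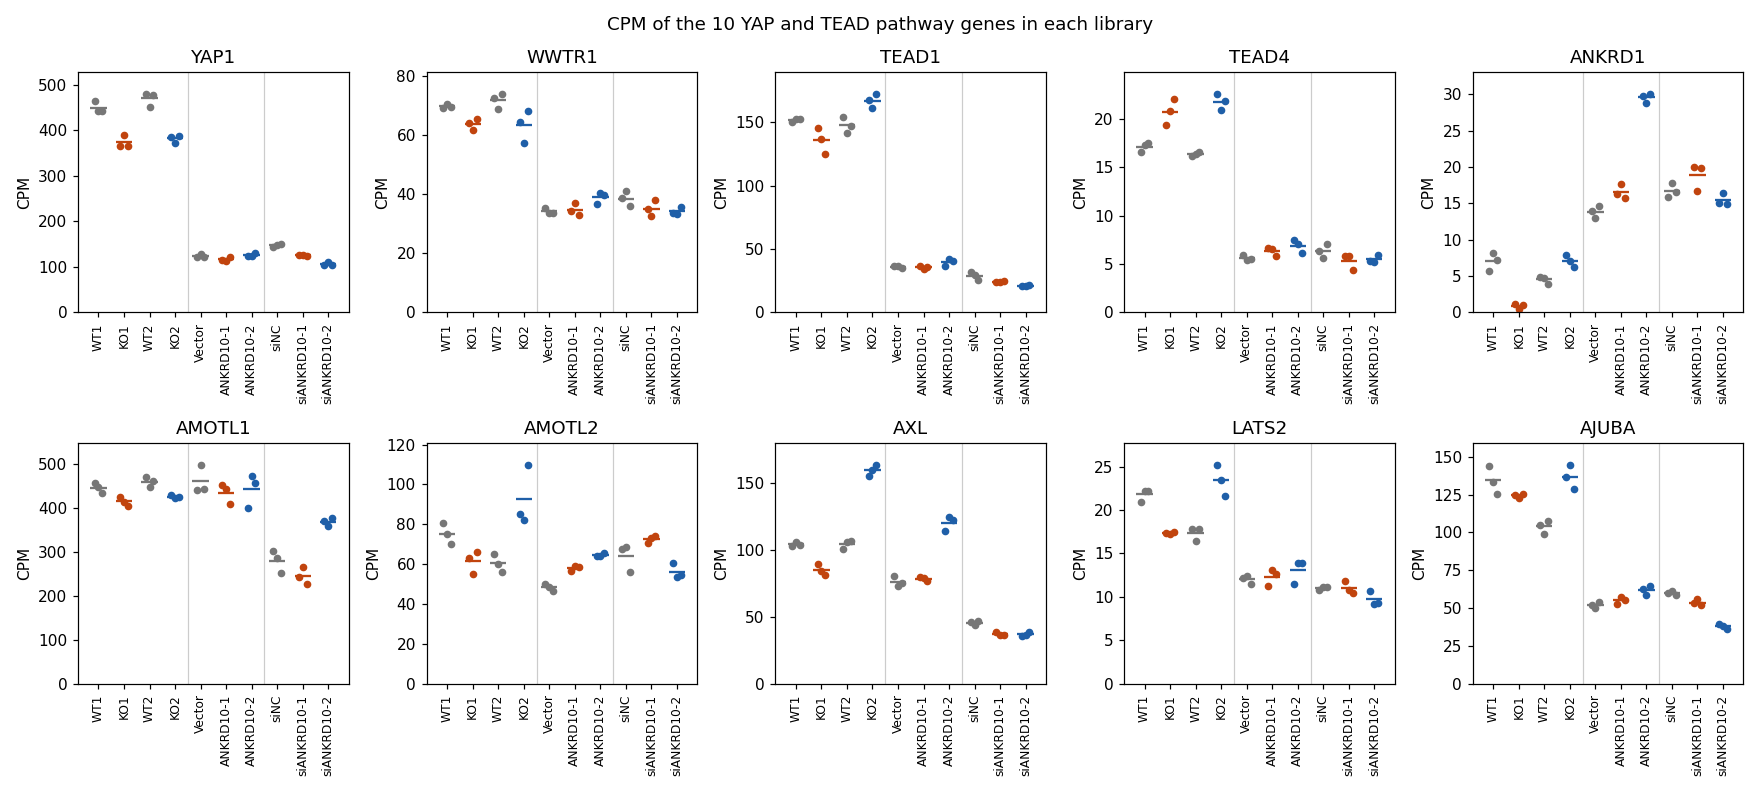
CPM of each of the 10 genes in all 30 libraries, 1 panel per gene; the x axis gives the group, points are libraries, short bars are group means of 3 libraries, and vertical lines separate the 3 tables, between which levels are not comparable. Within the knockout table ANKRD1 ranges from 0.502 CPM in KO1 to 8.20 CPM in WT1, and YAP1 sits below its controls in all 6 knockout libraries.

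The 10 genes moved in different directions in the knockouts. In KO1, 5 of the 10 genes fell (YAP1, ANKRD1, AMOTL2, AXL and LATS2) and TEAD4 rose, beside 36.1% of all 17865 genes tested that passed an adjusted p of 0.05 by edgeR's quasi-likelihood test (17.9% higher, 18.2% lower). In KO2, 7 of the 10 rose (TEAD1, TEAD4, ANKRD1, AMOTL2, AXL, LATS2 and AJUBA) and the other 3 fell (YAP1, WWTR1 and AMOTL1), beside 38.5% of all 18267 genes (19.3% higher, 19.2% lower). The median log2 fold change of the 10 genes was -0.21 in KO1 and 0.40 in KO2, where the medians over all genes tested were 0.00 and -0.02. The CPM of knockout and control did not overlap for 9 of the 10 genes in KO1 and for all 10 in KO2, against 48.7% and 49.5% of all genes.

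ANKRD10-2 overexpression raised 5 of the 10 genes (WWTR1, ANKRD1, AMOTL2, AXL and AJUBA) and lowered 0 (also 0 at an unadjusted edgeR p under 0.05 and with DESeq2), where 19.9% of all 20177 genes passed (10.7% higher, 9.25% lower). ANKRD10-1 overexpression raised AMOTL2 alone among the 10, where 6.31% of all 20457 genes passed (3.5% higher, 2.81% lower). The median log2 fold change of the 10 genes was 0.22 for ANKRD10-2 and 0.04 for ANKRD10-1. Libraries did not overlap with Vector for 6 of the 10 genes with ANKRD10-2 (36.3% of all genes) and for 3 with ANKRD10-1 (25.7% of all genes). The overexpression contrasts share the Vector libraries, so their values stand side by side and are not independent. Compared directly, ANKRD10-2 exceeded ANKRD10-1 for 2 of the 10 genes, ANKRD1 and AXL, where 7.26% of all 20052 genes passed (4.15% higher, 3.1% lower), and the groups did not overlap for 6 of the 10 (25.9% of all genes).

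In the knockdown table, siANKRD10-1 lowered 3 of the 10 genes (YAP1, TEAD1 and AXL) and raised 0 (1 at an unadjusted edgeR p under 0.05 and 0 with DESeq2), where 10.6% of all 18785 genes passed (5.08% higher, 5.52% lower). siANKRD10-2 lowered 6 (YAP1, WWTR1, TEAD1, AMOTL2, AXL and AJUBA) and raised AMOTL1, where 36.3% of all 18924 genes passed (17.6% higher, 18.7% lower). The medians of the 10 genes were -0.17 and -0.21 on the log2 scale. Libraries did not overlap with siNC, which both contrasts share, for 5 of the 10 genes in siANKRD10-1 (28.3% of all genes) and 7 in siANKRD10-2 (46.5% of all genes). In the direct comparison, siANKRD10-2 was lower than siANKRD10-1 for 5 of the 10 genes (YAP1, TEAD1, ANKRD1, AMOTL2 and AJUBA) and higher for AMOTL1, where 37% of all 18832 genes passed (18.2% higher, 18.8% lower), and 6 of the 10 did not overlap (46.9% of all genes). With 1 library left out, 4 to 5 of the 10 genes were called in place of 6, and TEAD1 was called in none of these 6 fits (adjusted p 0.0504 to 0.112).

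**Figure D2:**
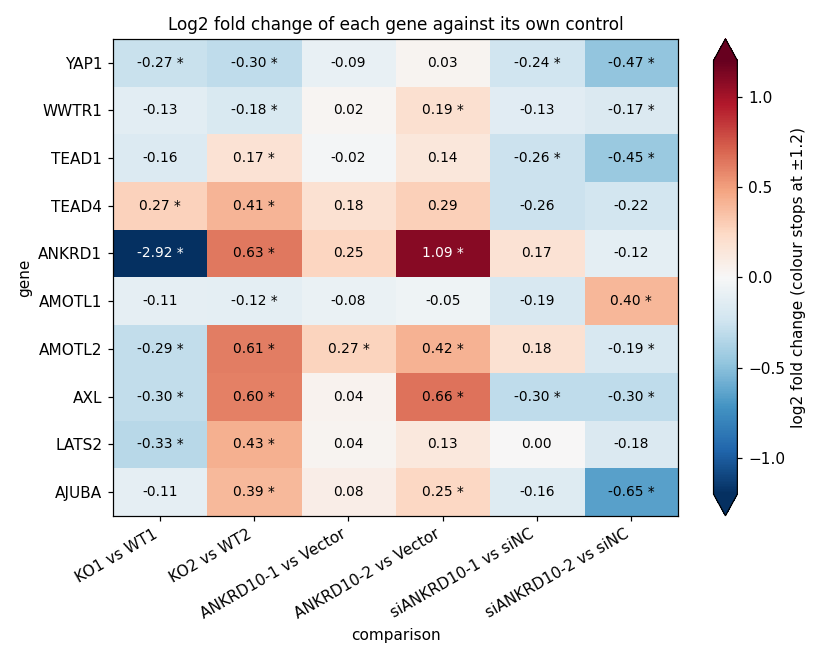
Log2 fold change of each of the 10 genes (rows) in the 6 comparisons with a control group (columns), with the value printed in each cell, blue for lower, red for higher, and an asterisk where edgeR's adjusted p was under 0.05. The YAP1 row is blue in both knockouts and both knockdowns, while ANKRD1, AMOTL2, AXL and LATS2 are blue in KO1 and red in KO2.

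Among the coactivators, YAP1 (ENSG00000137693, chr11:102110461-102233423, + strand of GRCh38) fell in both knockouts. Its CPM was 464, 443 and 442 in WT1 and 366, 391 and 366 in KO1, which is a change of -0.27 ± 0.05 on the log2 scale (SE, adjusted p = 0.001). It was 481, 451 and 479 in WT2 and 386, 373 and 388 in KO2 (-0.30 ± 0.03, adjusted p = 1.96e-05). Every knockout library lay below every WT library, and the difference between the falls in KO1 and KO2 was 0.03 (95% interval -0.09 to 0.15, adjusted p = 0.746). In the overexpression table YAP1 was 123, 128 and 123 CPM in Vector, 116, 114 and 121 with ANKRD10-1 and 125, 125 and 130.2 with ANKRD10-2, and neither contrast passed the test (log2 fold change -0.09 and 0.03). Both knockdowns lowered it, from 145, 148 and 151 CPM in siNC to 126, 126 and 124 in siANKRD10-1 (-0.24 ± 0.05, adjusted p = 0.00655) and 104, 111 and 104 in siANKRD10-2 (-0.47 ± 0.05, adjusted p = 9.27e-08). The fall was larger in siANKRD10-2 than in siANKRD10-1 when these were compared directly (-0.23 ± 0.05, adjusted p = 0.00158).

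WWTR1 (ENSG00000018408, chr3:149517235-149736714, - strand), which encodes TAZ, moved little. It was 69.3, 70.6 and 69.7 CPM in WT1 and 64.2, 62.0 and 65.5 in KO1, without overlap, but the log2 fold change of -0.13 ± 0.05 did not pass (adjusted p = 0.0651). It was 72.7, 68.8 and 74.1 in WT2 and 64.6, 57.6 and 68.4 in KO2 (-0.18 ± 0.06, adjusted p = 0.0312). In the overexpression table it was 35.2, 33.8 and 33.7 in Vector, 34.4, 37.0 and 32.9 with ANKRD10-1 and 36.6, 40.4 and 39.9 with ANKRD10-2. All ANKRD10-2 libraries lay above Vector (0.19 ± 0.06, adjusted p = 0.0447), whereas the ANKRD10-1 libraries overlapped it (0.02). In the knockdown table it was 38.8, 41.0 and 36.0 in siNC, 34.9, 32.6 and 38.2 in siANKRD10-1 and 33.7, 33.5 and 35.7 in siANKRD10-2, with log2 fold changes of -0.13 (adjusted p = 0.27) and -0.17 (adjusted p = 0.0445). The 3 calls of WWTR1 were the least firm among the coactivators: with 1 library left out, the call was lost in 4 of 6 fits for KO2 (without WT2 replicate 1 or 3, or KO2 replicate 1 or 2; adjusted p 0.0636 to 0.135), in 5 of 6 for ANKRD10-2 (all but its replicate 1; 0.0771 to 0.135) and in 4 of 6 for siANKRD10-2 (without siNC replicate 1 or 2, or siANKRD10-2 replicate 1 or 2; 0.0932 to 0.229). Without the low-count filter all 3 calls were lost (0.0663, 0.0797 and 0.0916), and that of siANKRD10-2 was also lost with DESeq2 (0.0896), with the replicate number as a block (0.0507) and with all groups in 1 fit (0.0614).

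TEAD1 (ENSG00000187079, chr11:12674591-12944483, + strand), a DNA-binding partner of YAP, rose in KO2 and did not pass the test in KO1. It was 150.3, 153 and 153 CPM in WT1 and 146, 137 and 125 in KO1 (-0.16 ± 0.06, adjusted p = 0.0501, just outside the threshold, and 0.0286 with DESeq2), and 155, 141 and 147 in WT2 and 167, 161 and 173 in KO2 (0.17 ± 0.04, adjusted p = 0.00619). The change in KO1 minus that in KO2 was -0.34 ± 0.07 (adjusted p = 0.00329). In the overexpression table TEAD1 ranged from 34.6 to 36.8 CPM in Vector and ANKRD10-1 cells and was 36.3, 42.1 and 40.5 with ANKRD10-2, and neither contrast passed (-0.02 and 0.14, the latter 0.20 with adjusted p = 0.0361 without ANKRD10-2 replicate 1). It was 31.5, 29.3 and 25.2 CPM in siNC, 23.7, 23.7 and 24.4 in siANKRD10-1 (-0.26 ± 0.08, adjusted p = 0.0422) and 20.7, 20.7 and 21.5 in siANKRD10-2 (-0.45 ± 0.08, adjusted p = 5.27e-05). Every siRNA library lay below every siNC library. Compared directly, siANKRD10-2 lay below siANKRD10-1 (-0.18 ± 0.07, adjusted p = 0.045), a call that was lost in each of the 6 fits without 1 library and with DESeq2 (0.0984), without the low-count filter (0.107), with the replicate number as a block (0.0727) and with all groups in 1 fit (0.0606). The siANKRD10-1 call of TEAD1 against siNC was lost when any 1 library other than siNC replicate 3 was left out (adjusted p 0.0636 to 0.224).

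TEAD4 (ENSG00000197905, chr12:2959330-3040673, + strand), a second TEAD factor, rose in both knockouts. Its CPM was 16.6, 17.3 and 17.5 in WT1 and 19.3, 20.8 and 22.1 in KO1 (0.27 ± 0.08, adjusted p = 0.0221), and 16.1, 16.3 and 16.5 in WT2 and 22.6, 20.9 and 21.8 in KO2 (0.41 ± 0.07, adjusted p = 0.000489). The rises were not shown to differ (difference -0.14, 95% interval -0.35 to 0.07, adjusted p = 0.365). The KO1 call was lost without WT1 replicate 1 or 2 or KO1 replicate 3 (adjusted p 0.0623 to 0.0745). In the overexpression table TEAD4 ranged from 5.43 to 7.47 CPM and in the knockdown table from 4.34 to 7.11 CPM, and no contrast there passed the test.

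AMOTL1 (ENSG00000166025, chr11:94706431-94876753, + strand), which binds YAP at junctions, fell slightly in KO2 and was near the threshold in KO1, with 457, 448 and 433 CPM in WT1, 426, 414 and 404 in KO1 (-0.11 ± 0.04, adjusted p = 0.0786, and 0.041 with DESeq2 or 0.0268 with all groups in 1 fit), 469.6, 446 and 462 in WT2 and 429, 423 and 424 in KO2 (-0.12 ± 0.03, adjusted p = 0.00992). It ranged from 399 to 497 CPM over the 9 overexpression libraries without a call. The knockdowns split it. It was 302, 285 and 251 CPM in siNC, 243, 265 and 227 in siANKRD10-1 (-0.19 ± 0.07, adjusted p = 0.0934, and 0.0144 without siNC replicate 3 or 0.0202 without siANKRD10-1 replicate 2) and 369, 358 and 376 in siANKRD10-2 (0.40 ± 0.06, adjusted p = 7.16e-06). siANKRD10-2 libraries lay above all others, and the direct comparison of siANKRD10-2 with siANKRD10-1 gave 0.59 ± 0.06 (adjusted p = 3.56e-08). AMOTL1 was the only 1 of the 10 genes to pass the test upward in a knockdown.

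Its paralog AMOTL2 (ENSG00000114019, chr3:134355874-134375479, - strand) moved in opposite directions in the knockouts. It was 80.5, 75.1 and 70.0 CPM in WT1 and 63.1, 55.2 and 66.1 in KO1 (-0.29 ± 0.08, adjusted p = 0.0108), but 65.1, 60.1 and 55.9 in WT2 and 85.3, 82.3 and 109.8 in KO2 (0.61 ± 0.09, adjusted p = 0.00026). KO1 thus lay below and KO2 above its own control, although the KO1 range overlapped that of WT2. The fall in KO1 was lost without WT1 replicate 1 (adjusted p = 0.0555). AMOTL2 rose with both overexpressed transcripts, from 50.1, 48.6 and 46.3 CPM in Vector to 56.8, 59.2 and 58.5 with ANKRD10-1 (0.27 ± 0.05, adjusted p = 0.00372) and 63.8, 64.2 and 65.5 with ANKRD10-2 (0.42 ± 0.05, adjusted p = 9.02e-05). The 3 groups did not overlap, yet the step from ANKRD10-1 to ANKRD10-2 did not pass (0.15 ± 0.05, adjusted p = 0.0933). In the knockdown table AMOTL2 was 67.6, 68.5 and 56.2 in siNC, 70.5, 73.2 and 74.1 in siANKRD10-1 (0.18 ± 0.07, adjusted p = 0.113) and 60.3, 53.3 and 54.6 in siANKRD10-2 (-0.19 ± 0.07, adjusted p = 0.0305). The siANKRD10-2 libraries overlapped siNC, whose replicate 3 was low, and the call was lost without siNC replicate 1 or 2 or siANKRD10-2 replicate 2 or 3 (adjusted p 0.114 to 0.175) and with DESeq2 (0.0574). siANKRD10-2 lay below siANKRD10-1 (-0.37 ± 0.06, adjusted p = 3.9e-05).

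LATS2 (ENSG00000150457, chr13:20973032-21061547, - strand), the kinase that phosphorylates YAP, was 21.0, 22.2 and 22.2 CPM in WT1 and 17.3, 17.3 and 17.5 in KO1 (-0.33 ± 0.07, adjusted p = 0.00473), and 17.8, 16.4 and 17.8 in WT2 and 25.2, 23.4 and 21.6 in KO2 (0.43 ± 0.08, adjusted p = 0.000793). The KO1 libraries sat at the level of WT2. The changes differed by -0.76 ± 0.10 (adjusted p = 3.96e-05). Over the overexpression libraries LATS2 ranged from 11.2 to 13.9 CPM and over the knockdown libraries from 9.17 to 11.8 CPM, and none of these 4 contrasts passed.

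AJUBA (ENSG00000129474, chr14:22971174-22982642, - strand), which restrains LATS kinases, was 144, 133 and 125 CPM in WT1 and 125, 123 and 126 in KO1, overlapping (-0.11 ± 0.06, adjusted p = 0.149), and 105, 98.9 and 108 in WT2 and 137, 145 and 128 in KO2 (0.39 ± 0.05, adjusted p = 8.42e-05). WT1 and KO2 libraries overlapped, whereas WT2 stood below all other groups of the table. AJUBA was 52.3, 50.3 and 54.1 in Vector, 52.8, 57.5 and 55.3 with ANKRD10-1 (0.08) and 62.4, 58.7 and 64.9 with ANKRD10-2 (0.25 ± 0.06, adjusted p = 0.00722). In the knockdown table it was 59.9, 61.0 and 58.5 in siNC, 53.2, 55.8 and 52.0 in siANKRD10-1 (-0.16 ± 0.06, adjusted p = 0.0987) and 39.7, 38.1 and 36.3 in siANKRD10-2 (-0.65 ± 0.06, adjusted p = 2.52e-09). The 3 knockdown groups did not overlap, and AJUBA had the largest fall of the 10 genes in siANKRD10-2, a fold of 0.636. It also lay below siANKRD10-1 there (-0.49 ± 0.06, adjusted p = 1.32e-06). AJUBA overlaps another protein-coding gene on its strand (AL132780.3), and YAP1, WWTR1, TEAD1, AMOTL1, AXL and LATS2 overlap antisense genes. The study names a stranded library kit, but the strand setting of the counting is not given in the sources used here. Whether reads of overlapping genes entered the counts of these members was not tested.

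ANKRD1 (ENSG00000148677, chr10:90912096-90921276, - strand), a YAP target gene, showed the largest change of the 10 genes in KO1 and with ANKRD10-2 overexpression. Its CPM was 5.72, 8.20 and 7.24 in WT1 and 1.16, 0.502 and 1.08 in KO1, from 298 to 488 reads down to 22 to 77 reads, a change of -2.92 ± 0.29 on the log2 scale (adjusted p = 1.97e-05), or a fold of 0.132. In KO2 it went the other way, from 4.94, 4.72 and 3.96 in WT2 to 7.84, 7.08 and 6.23 (0.63 ± 0.15, adjusted p = 0.00512). KO1 was thus far below every WT library, while KO2 was above WT2 but within the range of WT1. The difference between the knockouts, -3.55 ± 0.33 on the log2 scale (adjusted p = 9e-07), was the largest among the 10 genes. ANKRD1 was 14.0, 13.0 and 14.6 CPM in Vector and 29.8, 28.8 and 30.1 with ANKRD10-2, a fold of 2.13 (log2 1.09 ± 0.07, adjusted p = 1.16e-07). With ANKRD10-1 it was 16.3, 17.6 and 15.7, above every Vector library but not past the test (0.25 ± 0.08, adjusted p = 0.0617, and 0.034 without Vector replicate 3). The direct comparison of ANKRD10-2 with ANKRD10-1 passed (0.84 ± 0.07, adjusted p = 1.73e-07). The knockdowns left it near its control, with 15.9, 17.8 and 16.6 CPM in siNC, 19.997, 16.8 and 19.9 in siANKRD10-1 (0.17 ± 0.09, adjusted p = 0.224) and 14.996, 16.4 and 14.9 in siANKRD10-2 (-0.12 ± 0.08, adjusted p = 0.281). siANKRD10-2 was lower than siANKRD10-1 (-0.29 ± 0.09, adjusted p = 0.0116), a call lost without siANKRD10-1 replicate 1 or siANKRD10-2 replicate 1 or 3 (adjusted p 0.0506 to 0.0682).

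AXL (ENSG00000167601, chr19:41219203-41261766, + strand), a receptor tyrosine kinase and YAP target gene, had tight replicates. It was 103, 106 and 104 CPM in WT1 and 89.1, 84.3 and 81.0 in KO1 (-0.30 ± 0.05, adjusted p = 0.00093), and 101, 106 and 107 in WT2 and 155, 159.7 and 163 in KO2 (0.60 ± 0.04, adjusted p = 2.57e-07). The WT groups overlapped, KO1 lay below both and KO2 above both, and the changes differed by -0.91 ± 0.06 (adjusted p = 4.24e-08). It was 80.5, 73.3 and 75.2 CPM in Vector, 79.4, 79.3 and 76.6 with ANKRD10-1 (0.04, adjusted p = 0.723) and 114, 124 and 122 with ANKRD10-2 (0.66 ± 0.05, adjusted p = 1.73e-06). Only ANKRD10-2 stood apart from Vector, and it exceeded ANKRD10-1 by 0.62 ± 0.05 (adjusted p = 2.84e-07). AXL was 46.2, 44.2 and 46.6 in siNC, 38.5, 36.4 and 36.3 in siANKRD10-1 (-0.30 ± 0.06, adjusted p = 0.00384) and 35.7, 36.5 and 38.8 in siANKRD10-2 (-0.30 ± 0.06, adjusted p = 0.000288). Both siRNAs lay below siNC, and their difference was 0.00 (95% interval -0.13 to 0.13).

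Tested gene by gene as the change in KO1 minus the change in KO2, 6 of the 10 genes differed between the knockouts, all lower in KO1, where 23.3% of all 19189 genes differed (11.2% higher, 12.1% lower). These were ANKRD1, AMOTL2, AXL, LATS2, AJUBA (-0.50 ± 0.08, adjusted p = 0.000178) and TEAD1. YAP1, WWTR1, TEAD4 and AMOTL1 were not shown to differ. The control groups themselves were not alike for some of these genes. WT2 lay below WT1 for AMOTL2 (-0.31 ± 0.07, adjusted p = 0.0429), LATS2 (-0.33 ± 0.07, adjusted p = 0.0461) and AJUBA (-0.37 ± 0.06, adjusted p = 0.00821), which made 3 of the 10 genes where 1.23% of all 18335 genes differed (0.578% higher, 0.654% lower). For ANKRD1 the value was -0.63 ± 0.16 (adjusted p = 0.0866, and 0.0205 with DESeq2). WT1 and WT2 did not overlap for 5 of the 10 genes (19.6% of all genes). These calls were near the threshold: AMOTL2 was lost without WT1 replicate 1 or 2 or WT2 replicate 2 or 3 (adjusted p 0.129 to 0.168), LATS2 without any 1 of the 6 libraries (0.0798 to 0.192) and AJUBA without WT2 replicate 2 (0.0542).

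The choice of control decided several calls. Against all 6 WT libraries, AMOTL2 and LATS2 were no longer called in KO1 (-0.14, adjusted p = 0.291, and -0.17, adjusted p = 0.191), and ANKRD1, LATS2 and AJUBA were no longer called in KO2 (0.28, adjusted p = 0.291; 0.26, adjusted p = 0.0519; 0.19, adjusted p = 0.138). WWTR1 (-0.15, adjusted p = 0.0136), TEAD1 (-0.14, adjusted p = 0.0356) and AMOTL1 (-0.13, adjusted p = 0.0128) gained a call in KO1 against all 6. With the control groups exchanged, KO1 against WT2 gave AMOTL2 0.03, LATS2 0.0017 and a rise of AJUBA (0.26, adjusted p = 0.00163), and KO2 against WT1 gave ANKRD1 -0.0034, LATS2 0.10 and AJUBA 0.02. The falls of YAP1, ANKRD1 and AXL in KO1, the fall of YAP1 and the rises of AXL, AMOTL2, TEAD1 and TEAD4 in KO2, and the rise of TEAD4 in KO1 passed the test against WT1, WT2 and all 6 WT libraries alike. WWTR1 and AMOTL1 passed in KO1 when set against WT2 (-0.17 and -0.15) but in KO2 were lost against WT1 (-0.14 and -0.07).

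**Figure D3:**
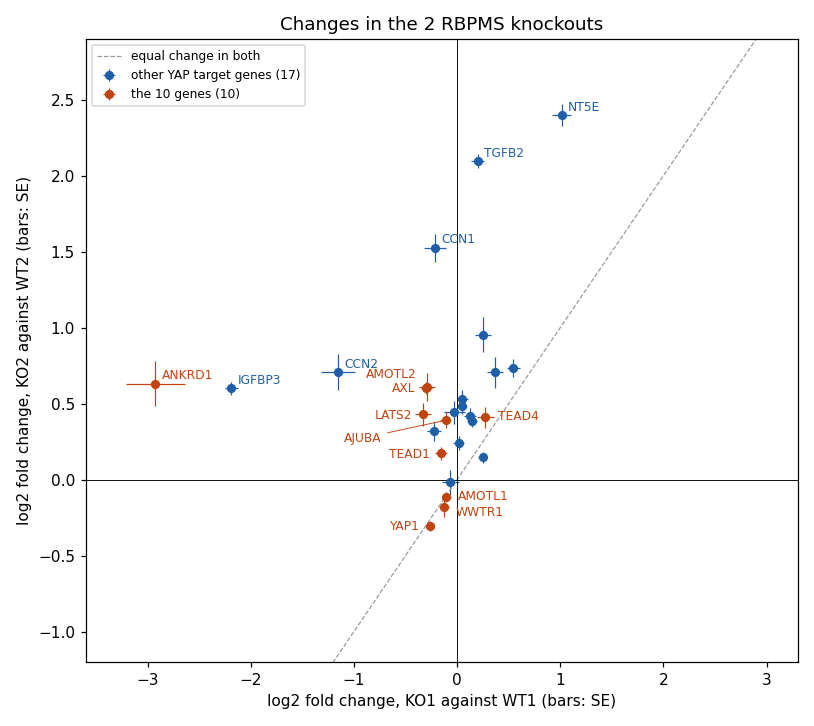
Log2 fold change in KO1 against WT1 (x axis) and in KO2 against WT2 (y axis) for the 10 genes (orange) and 17 other YAP target genes (blue), with bars of 1 SE and a dashed line of equal change. YAP1, WWTR1 and AMOTL1 lie near the line below 0, and ANKRD1, at -2.92 and 0.63, lies farthest from it.

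Other YAP target genes, a list of 18 genes of which 17 were tested, were counted beside the 10. This list, too, was chosen with earlier results of these data known. In KO2, 16 of the 17 rose and 0 fell, also at an unadjusted edgeR p under 0.05 and with DESeq2. Of all genes, 38.5% passed in either direction (19.3% higher, 19.2% lower). The median log2 fold change of the list was 0.53 against -0.02 over all genes. The largest rises were those of NT5E, the ectoenzyme CD73 (2.40 ± 0.07, adjusted p = 3.23e-10), TGFB2, a growth factor (2.09 ± 0.04, adjusted p = 2.75e-11), and the matricellular gene CCN1 (1.52 ± 0.09, adjusted p = 9.95e-08), and CCN2 rose by 0.71. In KO1, 7 rose and 3 fell, where 36.1% of all genes passed (17.9% higher, 18.2% lower), with a median of 0.05 against 0.00. IGFBP3 (-2.19 ± 0.06, adjusted p = 3.91e-09) and CCN2 (-1.15 ± 0.16, adjusted p = 0.000275) fell there while NT5E rose (1.01 ± 0.09, adjusted p = 1.1e-05). The difference between the knockouts passed for 13 of the 17, each with the lower change in KO1, where 23.3% of all genes passed (11.2% higher, 12.1% lower). The controls also differed for this list: WT2 lay below WT1 for 5 of the 17 (CCN1, F3, IGFBP3, NUAK2 and TGFB2) and above it for 0, where 1.23% of all genes differed, with CCN1 at -0.82 (adjusted p = 0.000132), TGFB2 at -0.50 and a list median of -0.16. Against WT1 in place of WT2, 17 of the 17 were called in KO2 in either direction, and against all 6 WT libraries 16. ANKRD10-2 overexpression raised 6 and lowered 3 of the 17 (19.9% of all genes passed, 10.7% higher and 9.25% lower), with rises of GADD45A (1.08), CCN1 (0.83) and TGFB2 (0.62). ANKRD10-1 overexpression raised 2 and lowered 4 (6.31% of all genes, 3.5% higher and 2.81% lower), with GADD45A at 0.73. siANKRD10-1 raised 2 and lowered 2 (10.6% of all genes, 5.08% higher and 5.52% lower). siANKRD10-2 raised 4 and lowered 5 (36.3% of all genes, 17.6% higher and 18.7% lower), with falls of FOXF2 (-0.83), F3 (-0.82) and TGFB2 (-0.44).

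The remaining TEAD factors and the VGLL cofactors, which compete with YAP for TEAD, were counted beside the same shares of all genes (36.1% in KO1, 38.5% in KO2, 6.31% with ANKRD10-1, 19.9% with ANKRD10-2, 10.6% in siANKRD10-1 and 36.3% in siANKRD10-2). Of 6 genes tested, 4 fell in KO1, namely VGLL1 (-1.95), VGLL3 (-1.26), TEAD2 (-1.01) and TEAD3 (-0.57), with a list median of -0.79. In KO2, 4 fell, among them VGLL1 (-1.75), TEAD3 (-0.49) and VGLL3 (-0.36), and 2 rose, TEAD2 (0.13) and VGLL2 (0.40), with a median of -0.26. By edgeR, 0 of the 5 tested there passed with either overexpression or in siANKRD10-1, and 0 passed with DESeq2. At an unadjusted edgeR p under 0.05, 1 passed with ANKRD10-2, 1 in siANKRD10-1 and 0 with ANKRD10-1. siANKRD10-2 raised TEAD2 (0.44) and VGLL4 (0.34) and lowered VGLL3 (-0.54). Among 22 Hippo kinases and regulators, 1 rose and 8 fell of 21 tested in KO1, with a median of -0.09, and 6 rose and 4 fell in KO2, with a median of 0.06. Taken in either direction, these counts lie near the shares of all genes called (36.1% and 38.5%). By direction, 17.9% of all genes were higher and 18.2% lower in KO1, and 19.3% higher and 19.2% lower in KO2. In KO1 the falls of this list thus exceeded their share and its rises stayed below theirs. FAT4, an atypical cadherin upstream of the kinases, fell in both (-1.41 and -1.92), and SAV1, the scaffold of the kinases, rose in both (0.21 and 0.54). The scaffold gene NF2 fell in KO1 (-0.25) and rose in KO2 (0.30). ANKRD10-2 overexpression raised 5 and lowered 3 of 22 and ANKRD10-1 raised 1 and lowered 3, and siANKRD10-2 raised 5 and lowered 3 of 20, near the 36.3% of all genes, and siANKRD10-1 raised 1 and lowered 3. The kinases LATS1, STK4 and TAOK2 passed in none of the 6 comparisons with a control.

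Each member was also set beside the genes around it on its chromosome. In KO1 the median log2 fold change over the 26 tested genes within 5 Mb of YAP1 was -0.22, where the median of chromosome 11 was 0.02, and 10 of them fell and 3 rose. In KO2 the median of 27 neighbours was also -0.22, and 14 fell and 2 rose. The fall of YAP1 was of like size (-0.27 and -0.30). AXL lay in a stretch where 134 of 237 neighbours fell in KO1 (median -0.54, and -0.38 over chromosome 19), below its own -0.30, whereas in KO2 its rise of 0.60 stood beside a neighbour median of -0.12. The median of the neighbours of ANKRD1 was -0.05 in KO1 and -0.09 in KO2, and those of AMOTL2 were 0.04 and -0.07. AMOTL1 had a neighbour median of -0.17 in KO2, beside its own -0.12. DNA copy number was not measured in these files, and its part in these values was not tested.

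**Figure D4:**
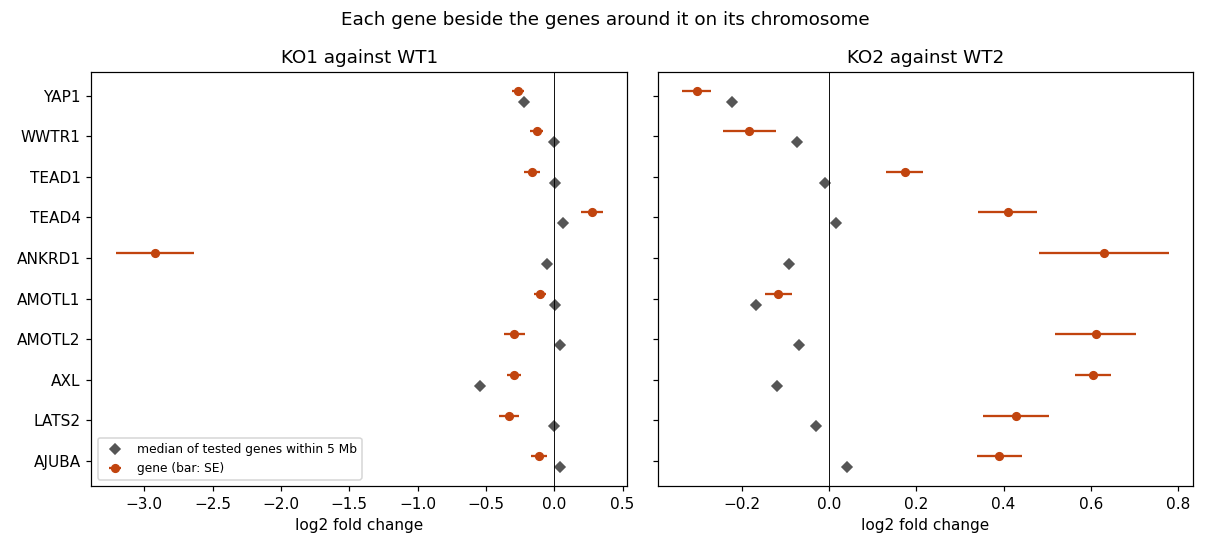
Log2 fold change of each of the 10 genes (orange, bars of 1 SE) and the median of the tested genes within 5 Mb of it (grey diamonds), for KO1 against WT1 (left) and KO2 against WT2 (right), on x axes of different range. YAP1 lies close to its neighbours in both knockouts, AXL lies above its neighbours in KO1 (-0.30 against -0.54), and ANKRD1 lies far from its neighbours in KO1 (-2.92 against -0.05).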

How the data were processed

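RNA-seq of 30 libraries of 5637 cells was analysed from 3 tables of raw gene counts, which the authors deposited without normalization. The submitters' processing notes name Trimmomatic 0.36, featureCounts of Subread 1.5.1 and GRCh38, and the strand setting is not given. The overexpression and knockdown tables also hold each gene's length in bases as deposited by the authors, and the knockout table does not. Lengths from the overexpression table were used for the RPKM of all 3 tables. Groups were taken from the labels. Counts were analysed with R 4.3.3 and edgeR 4.0.16: filterByExpr (minimum count 10, minimum total count 15), TMM, and the quasi-likelihood test with only the compared groups in the fit, p-values adjusted by Benjamini-Hochberg across every tested gene, with calls at an adjusted p under 0.05. A prior count of 0.125 enters the log2 fold changes, and errors are standard errors on the log2 scale. The knockouts were compared as a difference of changes over the 12 libraries of their table. DESeq2 1.42.0, other size factors, no filter, a shared fit, other controls, a replicate block and leaving out each library were alternatives. The steps were tested on simulated data. Over the comparisons, 35% to 65% of genes given a log2 change of 0.5 were recovered, and 57% to 86% at 1. For KO1 against WT1 these shares were 38% and 73%, and for KO2 against WT2 52% and 64%. False calls numbered 17 for KO1, 15 for KO2 and 5 to 12 in the other comparisons. For a single gene, an exact permutation test on groups of 3 could not reach below 0.1. Positions are from GENCODE (GRCh38), and promoter sequence is from RefSeq (GRCh38.p14), where 8 of 10 genes matched. Named genes are the 10 members, genes of the 3 pathway lists that passed, by size of change, and the 3 genes most like YAP1 and ANKRD1, of which 1 is not reported here; LATS1, STK4, TAOK2, NF2, SAV1 in KO1, F3 and IGFBP3 in WT2 against WT1, VGLL4, TEAD2 and VGLL3 in KO2, TEAD3 in KO1 and CCN2 in KO2 were named after their values were seen. The members and lists were chosen with earlier results of these data known. No 2 libraries of a group agreed within sampling noise.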

Additional observations from a re-analysis of the deposited data

Results flagged for a closer look

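The change in KO1 minus the change in KO2 passed edgeR's test of that difference for 6 of the 10 genes, and each was lower in KO1. The differences on the log2 scale were -3.55 for ANKRD1, -0.91 for AMOTL2, -0.91 for AXL, -0.76 for LATS2, -0.50 for AJUBA and -0.34 for TEAD1. For AMOTL2, LATS2 and AJUBA the control groups also differed, with WT2 against WT1 at -0.31, -0.33 and -0.37 on the log2 scale. These values enter the difference as calculated and widen it. ANKRD1 had a value of -0.63 there, in the same direction, which did not pass edgeR's test (adjusted p = 0.0866, and 0.0205 with DESeq2). Why the controls differed was not tested. For AXL neither control overlapped with either knockout, and WT2 against WT1 was 0.01. Over the 254 tested genes within 5 Mb of AXL, the same difference between knockouts had a median of -0.45, with 101 lower and 11 higher. Over chromosome 19 the median was -0.39. The part of this in the AXL value of -0.91 was not tested.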

How the results depend on the processing

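Of 1190 fold changes of the 10 genes under the alternatives, 1069 kept their direction and side of the threshold, 70 lost a call, 21 gained one and 30 changed sign, and the cause was not tested. KO2 against WT1 called 5 members in place of 10 and 3 TEAD and VGLL genes in place of 6. Against WT2, KO1 gave AMOTL2 0.026, LATS2 0.0017 and AJUBA 0.26, and against all 6 WT libraries AJUBA 0.064, and KO2 against WT1 gave ANKRD1 -0.0034. The exchanged controls were chosen after seeing the data. ANKRD10-1 overexpression with all groups in 1 fit called 2 members in place of 1 and 2 Hippo genes in place of 4. WT2 against WT1 called 1 member in place of 3 without the low-count filter, and 571 genes with DESeq2 and 88 without the filter in place of 226. AMOTL1 in KO1 minus KO2 was -0.0018 with DESeq2 size factors, and AXL in siANKRD10-2 against siANKRD10-1 was -0.0016 with DESeq2 and -0.0035 with all groups in 1 fit.

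Libraries with the same replicate number did not deviate together (correlations of their deviations from the group means of at most 0.0683), so the numbers were not taken as a pairing. With the number as a block, siANKRD10-1 called 5 members in place of 3 and 8 other YAP target genes in place of 4, and the count of members called was 6 in KO1, 10 in KO2, 1 and 5 with ANKRD10-1 and ANKRD10-2 and 6 in siANKRD10-2.

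Leaving out 1 library gave 4 to 7 members called in KO1, 9 to 10 in KO2, 1 to 2 with ANKRD10-1, 4 to 5 in siANKRD10-2 against siANKRD10-1 and 0 to 2 in WT2 against WT1. Called Hippo genes ranged from 5 to 11 in KO1, from 1 to 3 with ANKRD10-1 and from 2 to 5 in siANKRD10-1. Called other YAP target genes ranged from 2 to 4 with ANKRD10-1 and from 2 to 7 in siANKRD10-1, and TEAD and VGLL genes from 0 to 1 with ANKRD10-2. Called genes ranged from 700 to 1549 with ANKRD10-1 (lowest without its replicate 1), from 2617 to 3533 with ANKRD10-2 (Vector replicate 1), from 949 to 2430 in siANKRD10-1 (siNC replicate 2), from 694 to 1396 in ANKRD10-2 against ANKRD10-1 (ANKRD10-1 replicate 1) and from 71 to 133 in WT2 against WT1 (WT2 replicate 2). Uncalled fold changes that crossed 0 were, with ANKRD10-1, WWTR1 (-0.024 to 0.062) and LATS2 (-0.0093 to 0.10), AMOTL1 with ANKRD10-2 (-0.096 to 0.021) and against ANKRD10-1 (-0.019 to 0.098), LATS2 in siANKRD10-1 (-0.047 to 0.041), WWTR1 (-0.014 to 0.10) and AMOTL1 (-0.018 to 0.021) in KO1 minus KO2, WWTR1 (-0.089 to 0.024), TEAD4 (-0.090 to 0.11) and AXL (-0.034 to 0.025) in siANKRD10-2 against siANKRD10-1, and AXL in WT2 against WT1 (-0.012 to 0.030).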

Other observations

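Over the 30 libraries, with log2 CPM centred within each table, the genes whose pattern was most like that of YAP1 among 13559 genes were BVES (Pearson r = 0.92), KLF5 (r = 0.89) and CALB1 (r = 0.89), and those most like ANKRD1 included CALM3 (r = 0.94) and TCF3 (r = 0.92). Among the 10 genes themselves, the closest pairs were TEAD1 with AXL (r = 0.70) and AMOTL2 with LATS2 (r = 0.70), and the most opposed pair was AMOTL1 with AJUBA (r = -0.64). These values describe 30 libraries that share 10 groups and 3 tables, so that the points are not independent.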
